A study of Homo sapiens with 2 samples.

Results

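The genes described here encode the cyclins, the cyclin-dependent kinases (CDKs), the CDK inhibitors, the CDC25 phosphatases with their opposing kinases, and the E2F transcription factors. They were chosen from a list of gene symbols, as those listed genes of these families that had a value in the deposited table, and they number 56 of 12353 measured genes. That every listed gene had a value therefore follows from the choice. The assay was global run-on sequencing (GRO-seq) of nascent RNA, in which polymerases already engaged on genes are allowed to extend their transcripts with a brominated nucleotide and the labelled RNA is captured and sequenced. The cells were BJ cells, an established human foreskin fibroblast line, grown in medium with 10% serum at 37 °C and given no treatment. All samples form 1 group of 2 libraries, called library a and library b, which the labels describe as biological replicates. The run-on lasted 5 min at 30 °C. There was no second condition, so no p-value was computed, and an exact sign-flip test of 2 libraries cannot go below p = 0.5.

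Cyclins are regulatory subunits that switch on CDKs. In the cell cycle, D cyclins with CDK4 and CDK6, and then E cyclins with CDK2, phosphorylate the retinoblastoma protein and release E2F factors, which turn on the genes of S phase. Cyclin A and B complexes with CDK2 and CDK1 then carry cells through S phase and mitosis. Another branch of the family acts in transcription, where CDK7, CDK9, CDK12 and CDK13 phosphorylate RNA polymerase II and CDK8 and CDK19 belong to the Mediator kinase module. Fibroblasts in culture are known for raising cyclin D1 in response to serum and for CDK inhibitors that hold them in arrest.

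Levels are FPKM, fragments per kilobase of gene scaled to library size, as the authors computed them. A value after ± is the SD over the 2 libraries (n = 2). The median of all genes was 11.7 FPKM, with quartiles at 6.295 and 22.175, and the percentile of a gene is its rank by mean FPKM among all 12353 genes. The read depth behind the values is unknown. Ratios between genes also depend on the gene length the authors divided by, which the sources do not give. The values do not separate engaged polymerases near the start of a gene from those further along it. All 8 fibroblast markers examined, COL1A1 and VIM among them, lay above the upper quartile, and the proliferation genes MKI67 and TOP2A averaged 18.05 and 52.8 FPKM. None of the 3 endothelial and 3 leukocyte markers had a value. Among 4 epithelial markers only CDH1 had one (1.49 ± 0.0141). Of 3 melanocyte markers PMEL (22.4 ± 2.23) and MLANA had values, and the mean of PMEL lay just above the upper quartile. The labels name no synchronisation of the culture. A low level of a gene used in 1 phase can come, among other ways, from fewer cells in that phase or from less RNA per cell. These cannot be told apart.

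Most members had levels above the median of all genes. The median over the 56 members was 19.2 FPKM, 1.64 times the median of all genes. It was 19.8 and 19.03 FPKM in libraries a and b. By mean FPKM, 44 members lay above the median of all genes, as 50% of all genes do by construction. Above the upper quartile lay 21 members, against 25% of all genes, and 7 lay below the lower quartile, again against 25% of all genes. The members spanned a 52.3-fold range, with CDKN1A highest and CDK14 lowest. When the members were put in order of level, 21 of 55 neighbouring pairs had library values that did not overlap. Of the other 34 neighbouring pairs, whose values overlapped, 8 had the same order within each library, and for 26 the order turned or tied between the libraries.

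**Figure D1:**
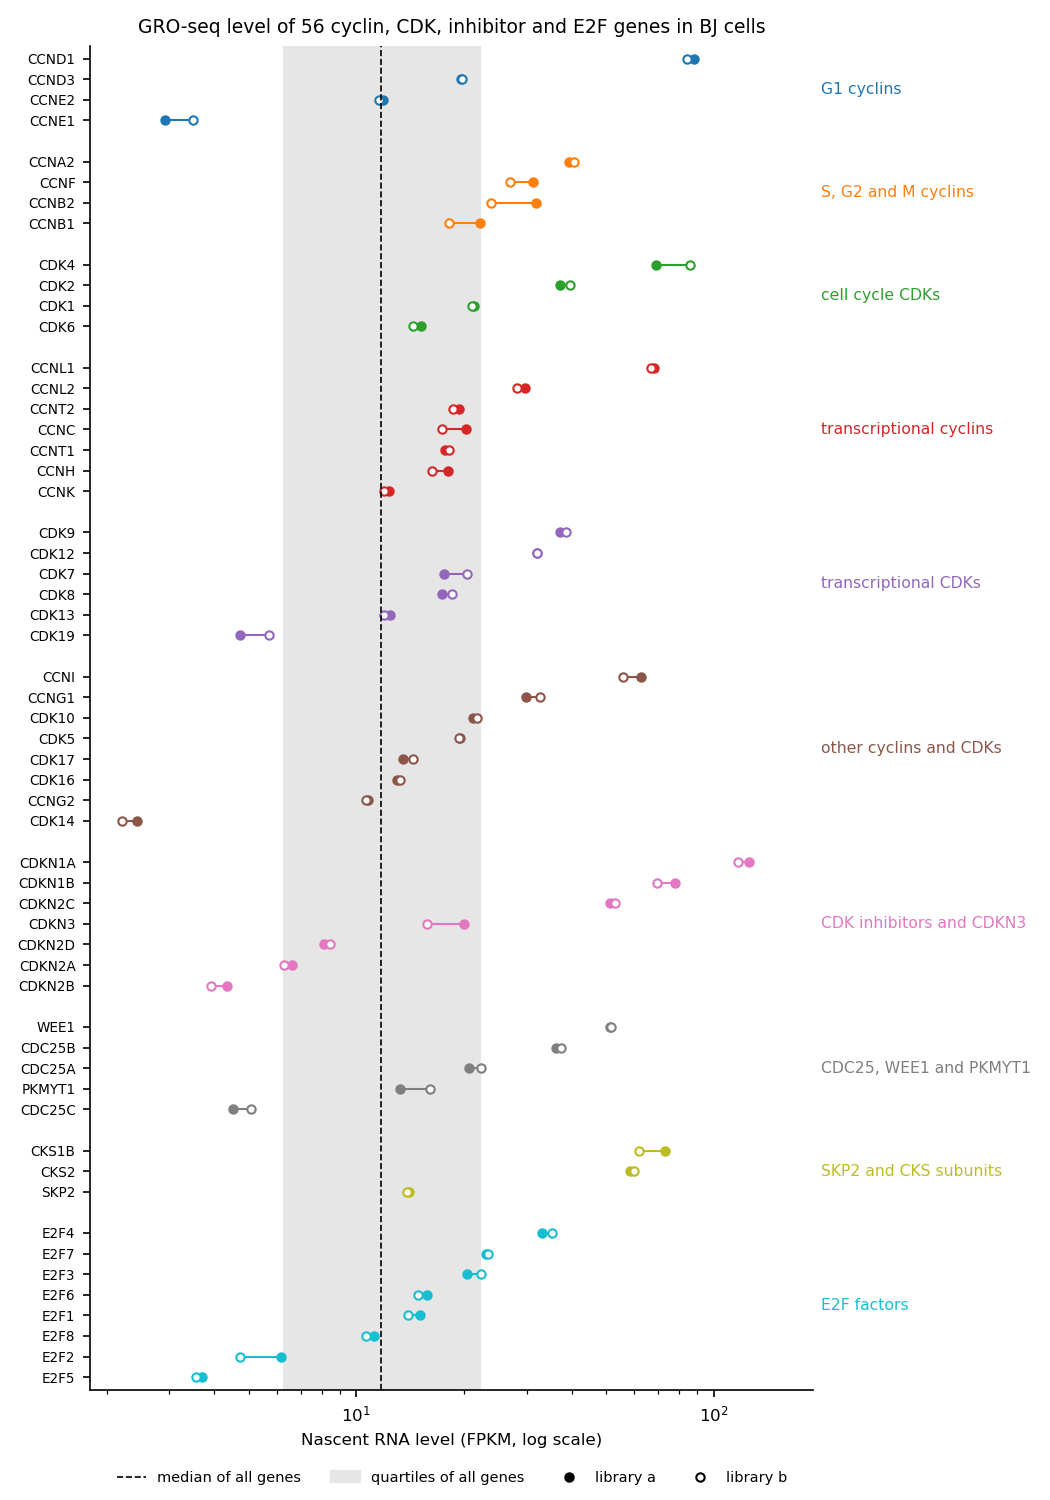
Nascent RNA level in FPKM (log axis) of the 56 members, by role from top to bottom, with library a as filled and library b as open points. The dashed line is the median of all genes (11.7) and the grey band spans their quartiles; CDKN1A at 121 lies far to the right and CDK14 at 2.32 far to the left.

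The G1 cyclins were spread widely. CCND1, cyclin D1, the D cyclin that serum induces, had 88.1 and 84.3 FPKM in libraries a and b, at percentile 97.1. CCND3, another D cyclin, had 19.6 and 19.8 FPKM in libraries a and b. CCND1 was thus 4.36-fold above CCND3 (log2 ratio 2.12 ± 0.0539), and both libraries put it higher. The third D cyclin, CCND2, had no value in the table. The E cyclins, which start S phase with CDK2, were lower. CCNE2 had 11.8 and 11.6 FPKM in libraries a and b, at the median of all genes. CCNE1 had 2.92 and 3.50 FPKM and was the lowest member but for CDK14 (percentile 9.24). CCNE2 exceeded CCNE1 by 3.58-fold in the same libraries. The annotated span of CCNE2 (RefSeq, GRCh38) overlaps INTS8 and NDUFAF6, both with values of their own, and whether the authors counted by strand is not given here. Spans of 12 members overlap another measured gene in this way, each named where it is described, and their levels are uncertain to that extent. With annotated genes that have no value included, 33 members overlap another gene, among them CDKN1A, which overlaps DINOL. The spans the authors counted on hg19 may differ from these. Of the FPKM summed over CCND1, CCND3, CCNE1 and CCNE2, CCND1 held 71.9% and 70.7% in libraries a and b.

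The cyclins of S phase, G2 and mitosis all lay above the median of all genes. CCNA2, cyclin A2, which works in S phase and G2, was highest, at 39.2 and 40.7 FPKM in libraries a and b. CCNF, an F-box protein and substrate receptor of a ubiquitin ligase, had 31.2 and 26.9 FPKM. CCNB2 had 31.8 and 23.8 FPKM, and CCNB1, the main mitotic cyclin, had 22.2 and 18.2. Library a was the higher one for CCNF, CCNB1 and CCNB2 but not for CCNA2. CCNB2 exceeded CCNB1 in both libraries, by 1.37-fold on average, although the higher of the CCNB1 values lay close under the lower CCNB2 value. CCNA2 was 1.98-fold above CCNB1 on average (log2 ratio 0.82 and 1.16 in libraries a and b). The span of CCNA2 overlaps EXOSC9, which has a value of its own.

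The 4 cell cycle CDKs lay above the median as well. CDK4, the partner of D cyclins, had 68.7 and 85.7 FPKM in libraries a and b (77.2 ± 12.03). CDK6, its close relative with the same partners, had 15.2 and 14.4 FPKM. CDK4 was 5.16-fold above CDK6, the largest ratio among the kinase pairs examined. CDK4 overlaps TSPAN31, so part of its reads could have been assigned to either gene. CDK2, the kinase of cyclins E and A, had 37.2 and 39.6 FPKM. CDK1, the mitotic kinase, had 21.3 and 21.05 FPKM and stood 1.81-fold below CDK2 in level. CDK1 and its partner CCNB1 were not separated, since their log2 ratio was -0.06 and 0.21 in libraries a and b. Of the FPKM summed over the 4 kinases, CDK4 held 48.2% and 53.3% in libraries a and b.

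Several members, mitotic ones among them, share letters just upstream of their starts. Genes of G2 and mitosis are known for promoters that combine CCAAT boxes, bound by NF-Y, with a CHR element, bound by the DREAM and MuvB complexes. The 250 bases upstream of each annotated start were searched on both strands for CCAAT, for the CHR letters TTTGAA or TTTAAA, for the E2F letters TTTCCCGC or TTTGGCGC, and for TATAAA. These letters do not overlap one another in the windows printed here. RefSeq starts (GRCh38.p14) were found for 49 of the 56 members, in 74 windows. No window was at hand for CCND1, CCNE2, CDK2, WEE1, PKMYT1, E2F5 and E2F8, which were therefore not searched. Windows with CCAAT made up 43.2% of members' windows, against 33.04% of the windows of measured genes and 32.0% of all windows in the table. CHR letters were in 23.0% of members' windows, against 15.5% of those of measured genes and 21.9% of all. Both together were in 13 member windows (17.6%), against 5.68% of those of measured genes and 7.64% of all. Those 13 windows belong to 12 genes. They are CCNB1, CCNB2, CCNF, CDK1, CDKN3, CKS2 and CDC25C, which are known for their part in G2 and mitosis, and CKS1B, CDKN1B, E2F3, CCNC and CDK19. The window of CCNA2 held CCAAT but no CHR letters. TATAAA was in 0 of the 74 member windows and in 6.06% of those of measured genes (10.7% of all). The CHR letters TTTAAA closely resemble TATAAA, and a match alone does not tell a CHR element from a sequence like TATAAA.

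In CCNB1, CCNB2, CKS1B, CKS2, CDC25C and CDKN1B the CHR letters began 29 or 30 bases before an annotated start. CCNE1 held them 28 bases before its start, with no CCAAT in its window. In CCNB1, CDKN1B and CCNE1 the letters were TTTAAA, which are close to TATAAA. A range of 25 to 35 bases, set after these positions were seen, held CHR letters in a window that also held CCAAT for 6 of 49 member genes (12.2%). The same held for 0.745% of measured genes (0.846% of all genes in the table). Because the range was set from the members' own positions, their share follows in part from that choice and is not a test. In the 6 genes the CCAAT nearest to the start began 50 to 55 bases before it, except in CDC25C, where it began 85 bases before. A match of letters is a description and does not show that a factor bound there. The last 120 bases before the start are printed for these genes to show that arrangement, 5′ to 3′ on the strand of the gene, with CCAAT (or ATTGG on the other strand) and the CHR letters (TTCAAA on the other strand) in capitals. The CDC25C window is 1 of its 4 annotated starts. Their positions on GRCh38.p14 are CCNB1 chr5:69167030-69167149 (plus strand), CCNB2 chr15:59105026-59105145 (plus strand), CKS1B chr1:154974561-154974680 (plus strand), CKS2 chr9:89311075-89311194 (plus strand), CDC25C chr5:138331805-138331924 (minus strand) and CDKN1B chr12:12717248-12717367 (plus strand).
CCNB1: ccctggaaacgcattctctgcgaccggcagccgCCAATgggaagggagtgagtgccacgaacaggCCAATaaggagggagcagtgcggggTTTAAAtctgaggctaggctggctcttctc
CCNB2: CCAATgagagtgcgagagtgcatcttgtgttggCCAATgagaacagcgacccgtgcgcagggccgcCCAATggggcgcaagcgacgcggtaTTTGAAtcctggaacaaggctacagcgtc
CKS1B: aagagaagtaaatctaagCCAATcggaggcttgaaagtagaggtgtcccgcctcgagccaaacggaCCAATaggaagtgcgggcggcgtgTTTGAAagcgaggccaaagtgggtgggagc
CKS2: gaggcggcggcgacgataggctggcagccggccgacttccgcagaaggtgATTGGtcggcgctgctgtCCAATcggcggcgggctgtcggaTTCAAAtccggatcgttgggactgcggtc
CDC25C: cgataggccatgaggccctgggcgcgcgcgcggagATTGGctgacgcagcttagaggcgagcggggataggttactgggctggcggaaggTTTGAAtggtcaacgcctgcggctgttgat
CDKN1B: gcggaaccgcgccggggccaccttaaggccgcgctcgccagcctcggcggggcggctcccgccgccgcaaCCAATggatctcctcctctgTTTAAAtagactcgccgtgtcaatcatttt

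**Figure D2:**
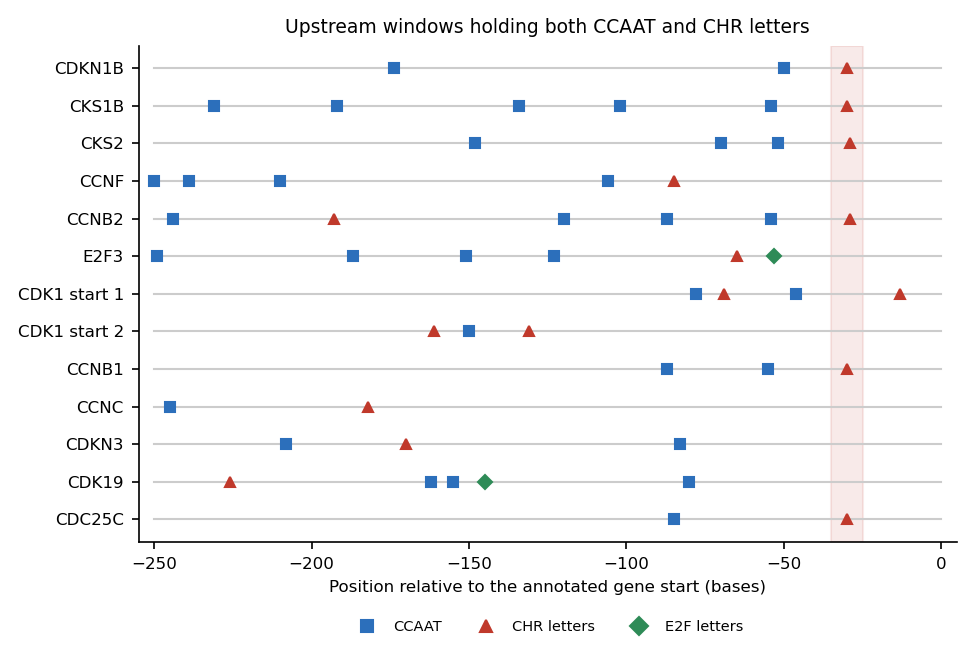
Position of CCAAT (squares), CHR letters (triangles) and E2F letters (diamonds) in the 13 upstream windows of members that hold both CCAAT and CHR letters, in bases relative to the annotated start at 0, with genes in order of level from the top. The shaded strip runs from 35 to 25 bases before the start and holds a triangle for CDKN1B, CKS1B, CKS2, CCNB2, CCNB1 and CDC25C.

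The genes with this arrangement were not alike in level. CDKN1B, CKS1B and CKS2 averaged from 59.2 to 73.7 FPKM, CCNB1 and CCNB2 averaged 20.2 and 27.8, and CDC25C averaged 4.785 ± 0.389. They were not alike between the libraries either, since CCNB1, CCNB2, CKS1B and CDKN1B were higher in library a, and CKS2 and CDC25C higher in library b.

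The genes that set the inhibitory phosphates on CDKs, and remove them, differed strongly. WEE1, the kinase that phosphorylates and restrains CDK1, had 51.3 and 51.55 FPKM in libraries a and b. PKMYT1, the membrane-bound kinase with the same task, had 13.3 and 16.05 FPKM, so WEE1 was 3.51-fold higher. PKMYT1 overlaps PAQR4, which has a value of its own. Among the CDC25 phosphatases, which remove those phosphates, CDC25B was highest, at 36.2 and 37.5 FPKM. CDC25A followed at 20.65 and 22.3 FPKM, and CDC25C, which acts at entry into mitosis, had 4.51 and 5.06. CDC25C overlaps FAM53C. CDC25B was 7.58-fold above CDC25C and 1.71-fold above CDC25A, each in the same direction in both libraries. All 5 of these genes were higher in library b, whereas 53.3% of all genes were higher in library a. The differences were small. WEE1 (1.005-fold), CDC25B (1.03-fold) and CDC25A (1.08-fold) differed by less than the median of all genes, 1.10-fold. CDC25C (1.12-fold) and PKMYT1, the largest at 1.21-fold, differed by more.

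CKS1B and CKS2 encode small subunits that bind CDKs, and SKP2 is the F-box protein that, with CKS1B, targets the inhibitor CDKN1B for degradation. CKS1B had 72.9 and 61.6 FPKM in libraries a and b, and CKS2 had 58.5 and 59.8. CKS1B was above CKS2 in both libraries, by 1.13-fold on average, with log2 ratios of CKS2 over CKS1B of -0.32 and -0.04 in libraries a and b. SKP2 was lower, at 14.05 and 13.85 FPKM. RefSeq lists 7 pseudogenes named after CKS1B, more than for any other member, and how the authors handled multiply mapped reads is not stated, so its level is uncertain. In all, 17 members have pseudogenes named after them, CDK4, WEE1, CCND3, E2F4 and SKP2 among them. The levels and ratios of those members carry the same uncertainty. SKP2 overlaps NADK2.

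The inhibitors held both the highest member and some of the lowest. CDKN1A, the inhibitor known as the p21 protein, had 125 and 117 FPKM in libraries a and b (121 ± 5.78), at percentile 98.2 and 10.4 times the median of all genes. CDKN1B, which restrains CDK2 in resting cells, had 78.1 and 69.3 FPKM. CDKN1A exceeded CDKN1B 1.65-fold. Of the INK4 family, which blocks CDK4 and CDK6, CDKN2C stood apart with 51.1 and 53.07 FPKM. The other INK4 genes were below the median of all genes. CDKN2D had 8.14 and 8.44 FPKM, CDKN2A had 6.60 and 6.28, and CDKN2B had 4.34 and 3.93. CDKN2C was 6.22-fold above CDKN2D, with log2 ratios of 2.64 in both libraries, and held 72.8% of the FPKM summed over the INK4 genes in library a (74.0% in library b). CDKN2A also encodes the ARF protein from another start, so its value joins transcripts of both products. Its span and that of CDKN2B overlap the antisense gene CDKN2B-AS1, and without knowledge of strand their reads cannot be told apart. Over the 6 inhibitors, CDKN1A and CDKN1B together made up 74.4% of the FPKM sum in library a (72.2% in library b). CDKN3, a phosphatase that acts on CDK1 and CDK2, had 20.02 and 15.8 FPKM in libraries a and b.

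The upstream sequence of the highest member is shown for contrast with those printed above. CDKN1A held none of the searched letters in the 250 bases before its annotated start, from which nothing follows about the factors that bind there. Its 120 bases lie at chr6:36678594-36678713 (plus strand) on GRCh38.p14.
CDKN1A: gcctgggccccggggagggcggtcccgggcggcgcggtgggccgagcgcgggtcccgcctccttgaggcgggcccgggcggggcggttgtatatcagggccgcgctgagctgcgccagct

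E2F4 led the E2F genes. E2F4, which represses with the pocket proteins RBL1 and RBL2 in resting cells, had 33.0 and 35.4 FPKM in libraries a and b. E2F5, its closest relative, had 3.69 and 3.57 FPKM, so E2F4 was 9.19-fold higher, the largest ratio of all the pairs examined. E2F5 overlaps RBIS. Of the activating factors, E2F3 had 20.4 and 22.35 FPKM, E2F1 had 15.1 and 13.9, and E2F2 had 6.16 and 4.74. E2F3 was above E2F1 by 1.47-fold, and E2F1 above E2F2 by 2.65-fold, in both libraries. The atypical repressors E2F7 and E2F8, which are themselves E2F targets, averaged 23.2 ± 0.226 and 10.9 ± 0.403. E2F6, a repressor that works without pocket proteins, averaged 15.3 ± 0.608. RefSeq lists 4 pseudogenes named after E2F6.

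E2F letters were found upstream of E2F1, E2F2, E2F3, CDC25A and CDK19, in 5 of 74 member windows (6.76%), against 2.83% of the windows of measured genes and 1.93% of all. Members without a window, such as CCNE2, E2F5 and E2F8, were not searched. E2F1 is known to be driven by E2F factors. The 120 bases before the start are printed for the 4 of them whose E2F letters lie within that stretch, in capitals with any CCAAT or CHR letters; the E2F letters read TTTGGCGC in E2F1, E2F2 and CDC25A, and GCGGGAAA, which is TTTCCCGC on the other strand, in E2F3. Their levels ran from 5.45 FPKM in E2F2 to 21.5 in CDC25A. The positions on GRCh38.p14 are E2F1 chr20:33686386-33686505 (minus strand), E2F2 chr1:23531234-23531353 (minus strand), E2F3 chr6:20401759-20401878 (plus strand) and CDC25A chr3:48188418-48188537 (minus strand).
E2F1: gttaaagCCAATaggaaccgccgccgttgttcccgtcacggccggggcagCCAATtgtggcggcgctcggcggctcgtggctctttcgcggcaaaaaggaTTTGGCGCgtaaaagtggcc
E2F2: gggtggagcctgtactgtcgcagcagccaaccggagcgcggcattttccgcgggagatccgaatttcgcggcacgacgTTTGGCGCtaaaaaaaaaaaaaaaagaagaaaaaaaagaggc
E2F3: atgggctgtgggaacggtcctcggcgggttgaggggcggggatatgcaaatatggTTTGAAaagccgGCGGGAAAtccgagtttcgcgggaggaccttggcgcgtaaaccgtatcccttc
CDC25A: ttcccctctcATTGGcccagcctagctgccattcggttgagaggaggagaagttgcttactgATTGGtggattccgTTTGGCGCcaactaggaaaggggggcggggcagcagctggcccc

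Transcriptional cyclins were even in level apart from the L cyclins. CCNL1, a cyclin of splicing-linked CDK11 kinases, had 68.1 and 66.6 FPKM in libraries a and b. CCNL2, its paralog, had 29.7 and 28.2, so CCNL1 was 2.32-fold higher. The others lay between 12.1 and 19.05 FPKM on average. CCNT1 and CCNT2, which pair with CDK9 in the elongation factor P-TEFb, averaged 17.95 ± 0.311 and 19.05 ± 0.544 and were not far apart (1.06-fold). CCNC, the cyclin of the Mediator kinase, averaged 18.8 ± 2.07, CCNH, the partner of CDK7 in TFIIH, averaged 17.2 ± 1.25, and CCNK, the partner of CDK12 and CDK13, averaged 12.1 ± 0.276. All 7 lay above the median of all genes. CCNH overlaps RASA1, and CCNK overlaps SETD3 and CCDC85C. Of the FPKM summed over the 7, CCNL1 held 36.7% and 37.6% in libraries a and b.

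Among the transcriptional kinases, CDK9 and CDK12 were highest. CDK9, the kinase of P-TEFb, had 37.1 and 38.7 FPKM in libraries a and b, 2.10-fold above its partner CCNT1. CDK12, which supports transcription of long genes, had 31.95 and 31.99 FPKM and was 2.61-fold above CDK13, with 12.4 and 11.9, and 2.62-fold above their shared cyclin CCNK. CDK7 had 17.6 and 20.4 FPKM and did not stand apart from CCNH, since the sign of the log2 ratio differed between libraries (-0.04 in a, 0.32 in b). CDK8 had 17.4 and 18.5 FPKM and was likewise not separated from CCNC, with a log2 ratio of -0.22 and 0.09 in libraries a and b. CDK19, the paralog that can replace CDK8 in the Mediator kinase module, was far lower, at 4.74 and 5.70 FPKM, and CDK8 exceeded it 3.40-fold. It was the only one of the 6 kinases below the median of all genes. CDK7 overlaps CCDC125 and CDK19 overlaps AMD1.

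Cell cycle cyclins and CDKs were set against the transcriptional ones. The 12 cell cycle genes had a median of 24.5 FPKM and the 13 transcriptional genes one of 18.8. In library a the medians were 26.7 and 18.1, and in library b 22.4 and 18.5, in the same order. On the scale of log2(FPKM + 0.1), the difference between the medians was 0.36 (0.54 and 0.27 in libraries a and b, SD 0.187), a 1.29-fold difference. The groups overlapped almost entirely. The cell cycle genes ranged from CCNE1 at 3.21 to CCND1 at 86.2 FPKM, a 26.9-fold span, and the transcriptional genes from CDK19 at 5.22 to CCNL1 at 67.3, a 12.9-fold span. Above the median of all genes lay 10 of the 12 cell cycle genes and 12 of the 13 transcriptional genes. Above the upper quartile lay 6 of 12 and 4 of 13. With CDK5, CDK10, CDK14, CDK16 and CDK17 counted as cell cycle genes the log2 difference came to 0.10. The 12 cell cycle genes include CCNF, the F-box protein. Their median lies between CCNB2 (27.8 FPKM) and CDK1 (21.2 FPKM), and without CCNF it would fall to the level of CDK1. The log2 difference without CCNF was not computed. It would set CDK1, with a log2 level of 0.855 over the median gene, against CCNC, the median transcriptional gene, with 0.680. The difference between the groups describes the genes in them, since genes are not replicates of a condition.

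**Figure D3:**
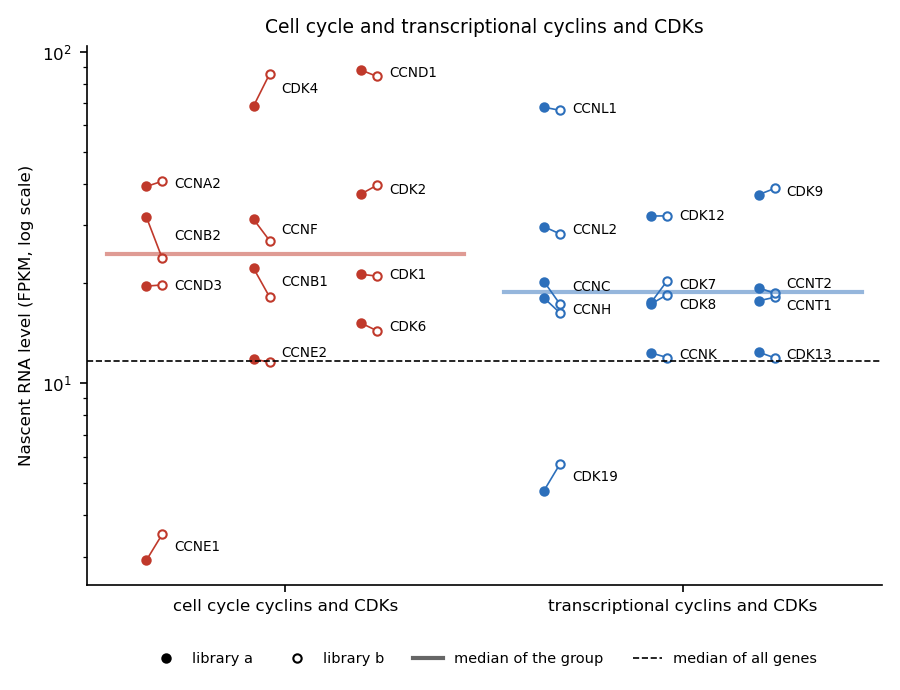
Nascent RNA level in FPKM (log axis) of the 12 cell cycle and the 13 transcriptional cyclins and CDKs, with library a as filled and library b as open points joined by a line. Thick lines are group medians, 24.5 and 18.8 FPKM, and the dashed line is the median of all genes; the points of the groups overlap over most of their range.

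Cyclins and CDKs with other roles had a median of 16.7 FPKM over 8 genes. CCNI, an atypical cyclin, had 62.65 and 55.7 FPKM in libraries a and b. CCNG1, which encodes cyclin G1, had 29.8 and 32.7 FPKM, 2.89-fold above CCNG2, with 10.8 and 10.7. CDK5, the kinase known for its role in neurons, had 19.44 and 19.40 FPKM, and CDK10 had 21.2 and 21.8. CDK16 and CDK17, of the PCTAIRE kinases, averaged 13.1 ± 0.191 and 13.9 ± 0.622. CDK14, a membrane-linked kinase that pairs with cyclin Y, was the lowest member, at 2.43 and 2.21 FPKM (percentile 4.97). CCNG1 overlaps NUDCD2.

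Most pairs of paralogs and partners kept their order in both libraries. In 24 of the 27 pairs examined the log2 ratio had the same sign in both libraries, and in 15 it exceeded 2-fold in both. Genes at large ranked alike in the libraries, with a Spearman rank correlation of 0.986 over all 12353 genes. Kept order is therefore not particular to these pairs, and no share over other gene pairs was counted. The 3 pairs whose sign differed between libraries were CDK1 with CCNB1, CDK7 with CCNH and CDK8 with CCNC, each a kinase with its cyclin. Their mean log2 ratios (0.075 ± 0.188, 0.139 ± 0.256 and -0.064 ± 0.222) were each smaller than the SD. Which gene of each of these pairs is higher was thus not resolved, and whether partners differ from other pairs was not tested. By contrast, CDK9 exceeded CCNT1, and CDK12 exceeded CCNK, by over 2-fold in both libraries. CDKN2A exceeded CDKN2B by 1.55-fold and E2F7 exceeded E2F8 by 2.12-fold.

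**Figure D4:**
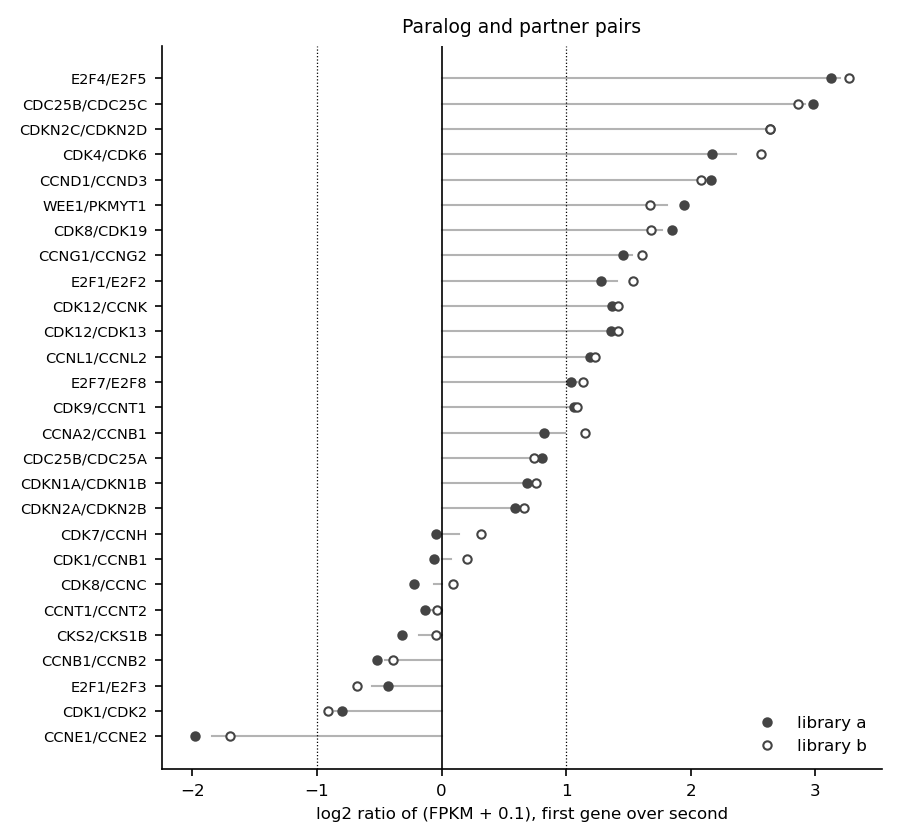
Log2 ratio of (FPKM + 0.1), first gene over second, for 27 pairs of paralogs or partners, with library a as filled and library b as open points and a grey line to the mean. Dotted lines mark 2-fold; E2F4 over E2F5 is highest at 3.20 and CCNE1 over CCNE2 lowest at -1.84.

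The members' values were compared between the libraries. None of the 56 differed by more than 1.5-fold, against 2.16% of all genes, and 3 differed by more than 1.25-fold, against 14% of all genes. The 3 were CCNB2 (1.33-fold), E2F2 (1.29-fold) and CDKN3 (1.27-fold), each higher in library a. The median difference was 1.06-fold over the members and 1.10-fold over all genes. Genes above the upper quartile of level, to which 21 members belong, had a median difference of 1.07-fold. Of those 3088 genes, 6 (0.194%) were past 1.5-fold and 129 (4.18%) past 1.25-fold. Of the 3 members past 1.25-fold, only CCNB2 (27.8 FPKM) lies above the upper quartile. E2F2 (5.45 FPKM) and CDKN3 (17.9 FPKM) lie below it, so these shares do not match the members' range of levels. Higher in library a were 30 of 56 members, against 53.3% of all genes. The largest difference the other way was in CDK4, 1.247-fold higher in library b.

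**Figure D5:**
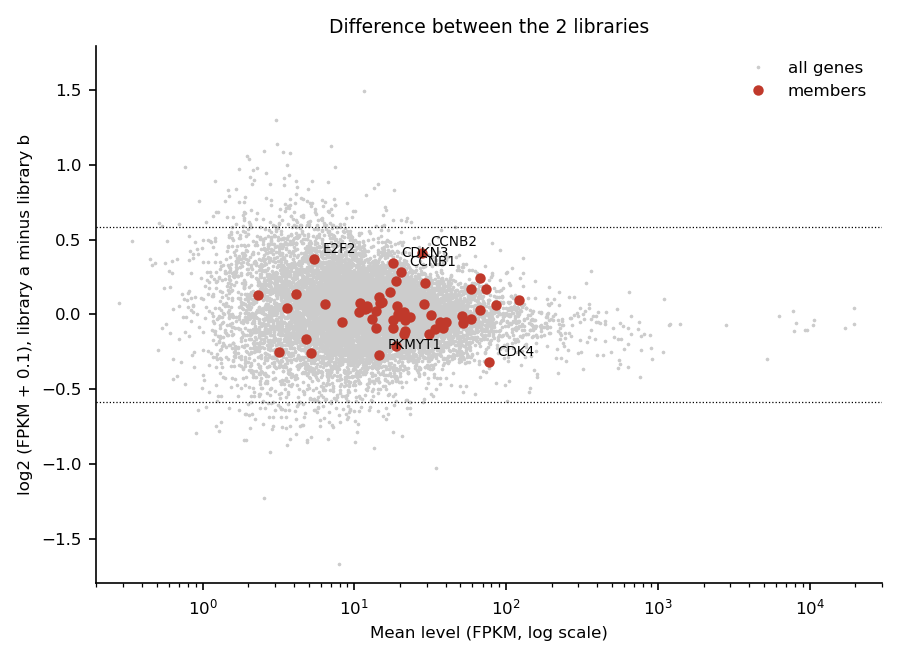
Difference between libraries, as log2(FPKM + 0.1) in library a minus library b, against mean level in FPKM (log axis), with all genes in grey and the 56 members in red. Dotted lines mark 1.5-fold, and all members lie between them; members past 1.2-fold are named.

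Genes that work with the members were taken from other lists. Of 12 genes for pocket proteins, their DP partners, the DREAM complex and FOXM1, all had values, and 4 lay above the median of all genes (list median 8.88 FPKM). LIN37, a DREAM subunit, averaged 27.7 ± 1.34 and FOXM1, an activator of mitotic genes, averaged 26.4 ± 2.11. TFDP2, a DP partner of E2Fs, was lowest at 2.955 ± 0.474. RB1 itself, the retinoblastoma gene, averaged 10.3 ± 0.948 and was named after its value was seen. Ubiquitin ligases of the cycle stood higher, with values for all 13 listed genes, 9 of them above the median (list median 18.6). CDC20, the activator of the anaphase-promoting complex, averaged 102 ± 3.96 and RBX1, a RING subunit of cullin ligases, averaged 76.6 ± 2.43, against 4.48 ± 0.255 for ANAPC1, a scaffold subunit.

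Of the 8 checkpoint genes described here, 4 lay above the median of all genes, led by the mitotic kinase gene PLK1 (40.7 ± 1.32) and the checkpoint kinase gene CHEK1 (39.0 ± 1.45). ATR, which signals replication stress, was lowest at 5.28 ± 0.580. Cofactors of the transcriptional kinases and CDK5 had values for 10 of 12 genes, 6 of them above the median. HEXIM1, the inhibitor of P-TEFb, averaged 227 ± 10.1 and MEPCE, which caps the small RNA that HEXIM1 needs, averaged 121 ± 2.99, both above CDK9, while CABLES1 averaged 4.64 ± 0.141. Family members outside the list were low where measured. Values existed for 8 of 16, and none of the 8 lay above the median. The highest were CDK11B (9.12 ± 2.05) and CDK11A (8.06 ± 0.651), near-identical copies whose values are therefore uncertain, and the lowest was CDK15 (2.39 ± 0.339). CCND2, CCNA1, CCNB3, CDKN1C and 4 others had no value.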

How the data were processed

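Nascent RNA was measured in 2 libraries of untreated BJ cells. The authors deposited FPKM values per Ensembl gene, 1 column a library, not pooled. Per the submitters' processing notes, Bowtie2, HTSeq and the build hg19 were used. Tool versions, the length and read total behind each FPKM, the handling of multiply mapped reads and the use of strand were not given in the sources used. No value was 0, and the lowest were 0.29 and 0.27, so genes at 0 are not among them. The columns, named a and b, belong to the group, but which replicate number each has is unknown.

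Current symbols were found for 12202 of 12353 identifiers in an Ensembl name table. Overlaps with other genes came from RefSeq spans on GRCh38 and promoter sequences from RefSeq on GRCh38.p14. Since the values were made on hg19, gene lengths were not examined. Log values are log2(FPKM + 0.1), and the count of genes past a fold was tested on simulated data. Among 3520 genes over FPKM 20, the fullest bin of ratios between libraries held 20 genes against a mean of 9.065 near equal levels, so no relative depth could be read and no counting interval is given. Because all samples form 1 group, results are described by values, counts and medians beside those of all genes.

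Members, lists and pairs were chosen with earlier results of these data known. All members are named, and of each further list the highest 2 and the lowest genes with a value; other names are marked. One gene of the checkpoint list is not reported here, and that list's counts are without it. Python 3.11.15, numpy 2.4.6, pandas 2.3.3 and matplotlib 3.10.9 were used. Alternatives were another pseudocount, a minimum level, other scalings, each library left out, list means and other group memberships.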

Additional observations from a re-analysis of the deposited data

How the results depend on the processing

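No paired analysis was possible because all samples form 1 group. The median level of the members over the median of all genes was 0.72 on the log2 scale and 0.68 with a pseudocount of 1, and from 0.70 to 0.75 with each library left out. The difference between cell cycle and transcriptional genes, 0.36, came to 0.10 with CDK5, CDK10, CDK14, CDK16 and CDK17 added and ran from 0.27 to 0.54 with each library left out. The number of members above the median of all genes was 44 or 45 under the pseudocounts, the minimum level, the scalings and each library left out. The number of pairs past 2-fold in both libraries, 15, was 14 or 15 under the pseudocounts, the minimum level and the scalings. In library b alone 16 pairs were past 2-fold, and in library a alone 15. The median of each of the 10 role groups stayed above that of all genes under the same settings and with each library left out. With a single library the number of members past 1.5-fold between libraries could not be had. CCNE2, at the median gene, lay on its other side with a minimum mean FPKM of 1 (log2 level -0.0048), and its log2 level was -0.017 without library a and 0.0097 without library b. Without library a the log2 ratio was 0.208 for CDK1 over CCNB1, 0.320 for CDK7 over CCNH and 0.0929 for CDK8 over CCNC. Without library b the same ratios were -0.0581, -0.0419 and -0.222. Leaving out a library or setting a minimum level uses fewer samples or genes, whereas the other pseudocounts and scalings use the same ones. Depth is unknown, so no limit of detection is given.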
